A study of Mus musculus with 24 samples.

Results

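Gene expression in the liver of wild-type (WT) mice was compared between the subjective day and the subjective night. The comparison used the 12 WT libraries of the 24 in the series: 6 libraries of the day, from circadian time (CT) 2, 6 and 10 h, and 6 of the night, from CT14, CT18 and CT22, each placed by the time in its title. Of the 54733 genes in the files, 11222 passed a filter on low values (a mean of 1 FPKM or more in these 12 libraries) and were tested. FPKM, the fragments of a gene scaled by transcript length and by the fragments mapped in the library, is a level per length. Each library held poly(A)-tailed RNA from the liver of male C57BL/6 mice, with 2 libraries per time point. The WT animals carried no engineered allele and received no agent, and the labels give no age. The study's methods describe the collection of tissues, livers among them, in constant darkness at projected circadian times, from mice of a stated age range. Their section on RNA sequencing gives no age and, for timing, the circadian times alone. The other 12 libraries, from the same 6 times, came from ΔRRE mice, a CRISPR line in which both copies of *Bmal1* (listed as *Arntl*) lack the RREs, the elements bound by REV-ERB and ROR proteins. CT2 to CT10 is the rest phase of a mouse and CT14 to CT22 its active phase, in which it eats most of its food.

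The liver clock is a feedback loop of transcription. PER and CRY proteins inhibit BMAL1 and CLOCK, the pair of activators that switches on the *Per* and *Cry* genes through E-boxes. The *Rev-erb* genes answer to the same pair, and their products act back on *Bmal1* through its RREs, as repressors. Around this loop, feeding, body temperature and glucocorticoid hormone also vary over the day and act on liver genes.

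Among the genes described below, *Cry1* (a repressor of the clock), *Hspa1a*, *Hspa1b* and *Hspb1* (heat shock genes) carry letters upstream of the start that are known from these circuits. The sequences are from RefSeq (build GRCm38.p6, the same assembly as mm10), read 5′ to 3′ on the strand of the gene. Each is a stretch of 60 bases upstream of the start of transcription, with each match of the motif in capitals: the E-box CACGTG for *Cry1*, and GAANNTTC, a pair of heat shock units, for *Hspa1a* and for *Hspb1*, which has 2 matches. The *Cry1* stretch is chr10:85185081-85185140 (minus strand), that of *Hspa1a* chr17:34972227-34972286 (minus strand) and that of *Hspb1* chr5:135887796-135887855 (plus strand).
Cry1: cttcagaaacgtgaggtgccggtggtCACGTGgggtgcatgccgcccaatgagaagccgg
Hspa1a: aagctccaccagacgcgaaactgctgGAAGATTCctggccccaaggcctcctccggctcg
Hspb1: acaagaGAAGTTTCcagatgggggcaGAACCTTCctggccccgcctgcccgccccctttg
Both motifs read the same on either strand, and neither overlaps the other in these stretches. Of 27025 genes with a promoter window of 250 bases before to 50 after the start, 8.09% held CACGTG and 9.04% held GAANNTTC, and a match is a description of the sequence. Among the 8219 tested genes with such a window the shares were 12.2% and 7.07%. The stretch at *Hspa1b* (chr17:34959309-34959368, minus strand) holds the same 60 bases as that of *Hspa1a*, a near-identical copy. Reads of this pair may be divided between the copies in an uncertain way.

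Day and night differed for 430 of the 11222 genes (3.83%) at an adjusted p under 0.05 in limma's test, a model of log2(FPKM + 0.1) fitted to the 6 times, so that the spread comes from the 2 libraries of each. Higher in the day were 264 genes (2.35% of the genes tested), and 166 (1.48%) were higher at night. With 1 library left out, the counts were as low as 54 in the day (without CT10 replicate 1) and 60 at night (without CT22 replicate 1). Folds are differences on the scale of log2(FPKM + 0.1), which are not ratios of mean FPKM. The night genes had the larger median difference, 1.77-fold against 1.57-fold for the day genes. A difference of at least 2-fold was seen for 59 genes of the night and 55 of the day. Day genes made up 61.4% of the calls, and this split moved with normalization. With size factors by median of ratios applied, 168 genes were higher in the day and 248 at night, and 40.4% of the calls were day genes. The median log2 difference of all genes was 0.05 as deposited and moved by -0.05 with rescaling. Of the 430 genes, 334 were also called after rescaling, all in the same direction. Without any test, 166 genes (1.48%) had all 6 day values above all 6 night values and 66 genes (0.588%) the reverse. The labels do not state that the 2 libraries of a time came from separate animals. The study's methods name biological replicates for tissue RNA, and for RNA sequencing give n = 2 without that term. The p-values measure only the spread between these libraries, which may be technical.

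The called day genes were most often highest at CT6 and CT10. Of the 264 genes, 58 had their highest time-point mean at CT2, 108 at CT6, 97 at CT10 and 1 at CT22. The lowest mean of the same genes was at CT14 for 106, at CT18 for 129, at CT22 for 28 and at CT2 for 1. Of the 166 night genes, 63 were highest at CT14, 64 at CT18 and 35 at CT22. CT2 held the highest mean of 3 night genes and CT10 that of 1. CT2 for the day genes and CT22 for the night genes, the times on either side of dawn, held the fewest peaks within their own phase. The day-night call itself largely fixes the phase of the highest and of the lowest mean. Genes that peak near a change of phase are also less likely to be called. Peak times of all tested genes are not given, so these counts describe the called genes only.

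The clock genes were the first group examined, with the repressors of the loop in both phases. *Nr1d1* (REV-ERBα, chromosome 11, 98767932 to 98775333, minus strand) ranged from 3.89 to 66.8 FPKM in the day (median 26.8) and from 0.457 to 12.1 FPKM at night (median 1.27). The lowest day library, at CT2, lay below the 2 libraries of CT14, and the phases overlapped there. The log2 difference of this gene was 3.46 (SE 0.41, adjusted p = 0.00285 in limma's test), or 11.01-fold. *Nr1d2* (REV-ERBβ) had a smaller difference of 2.03-fold (adjusted p = 0.0351 in limma's test, a call lost in 17 of 28 other settings), with 3.27 to 39.5 FPKM in the day and 2.94 to 19.0 FPKM at night. *Dbp*, an activator of D-box genes and an E-box target, ranged from 0.261 to 108 FPKM in the day (median 33.3) and from 0.873 to 29.4 FPKM at night (median 3.30). It was highest at CT10, with 104 ± 5.09 FPKM (SD, n = 2), and among the lowest of its own values at CT2, with 0.548 ± 0.407 FPKM (SD, n = 2). Its difference of 2.67-fold (adjusted p = 0.0175 in limma's test) rested on that peak. Without CT10 the log2 difference of *Dbp* was -0.12 (adjusted p = 0.869 in limma's test).

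The night side of the loop held *Cry1*, *Per2*, *Bhlhe40* and *Arntl*. *Cry1* (chromosome 10, 85131700 to 85185064, minus strand), whose E-box is printed above, ranged from 1.69 to 8.10 FPKM in the day (median 2.81) and from 7.19 to 16.4 FPKM at night (median 13.1). It was higher at night by 3.58-fold (log2 difference -1.84, SE 0.13, adjusted p = 0.000129 in limma's test), the smallest adjusted p of the clock lists. *Per2* (chromosome 1, 91415982 to 91459324, minus strand) ranged from 1.69 to 9.59 FPKM in the day (median 2.54) and from 4.59 to 20.4 FPKM at night (median 15.6), a difference of 3.32-fold (adjusted p = 0.000846 in limma's test). For both genes the low night values and the high day values overlapped: the 2 libraries of CT2 were the highest day values of *Cry1*, and those of CT10 the highest of *Per2*. *Bhlhe40*, which encodes a repressor of E-box genes, was 1.90-fold higher at night (adjusted p = 0.0213 in limma's test) and was highest at CT14, with 69.2 ± 29.3 FPKM (SD, n = 2). *Arntl* ranged from 0.0919 to 13.2 FPKM in the day (median 2.64) and from 1.15 to 11.2 FPKM at night (median 5.86), and it was 2.35-fold higher at night on the log2 scale (adjusted p = 0.00826 in limma's test). The mean FPKM of the phases lay closer together, at 5.23 ± 6.06 FPKM in the day and 6.10 ± 4.09 FPKM at night (SD, n = 6). Its highest values stood at CT2 and CT22, on both sides of the boundary between the phases. Leaving out CT10, where it was lowest, turned the log2 difference to 0.32 (adjusted p = 0.351 in limma's test).

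The remaining clock genes were not called, although the time-point means of several lay far apart. Under other settings some of them were called. These were *Per3* in 4 of 27 settings, *Npas2* in 3 of 27, *Per1* in 2 of 27, *Tef* and *Nfil3* in 3 of 28 each, and *Ciart* in 2 of 28. *Per1* had 0.461 ± 0.0426 FPKM at CT2 and 7.49 ± 0.786 FPKM at CT10 (SD, n = 2), and then 7.57 ± 0.728 FPKM at CT14 (SD, n = 2). Its peak lay across the boundary of day and night, and the log2 difference was -0.77 (adjusted p = 0.120 in limma's test). *Per3* (-0.58), *Ciart* (-0.74) and *Tef* (-0.38, a D-box activator) had peaks at CT10 that ran into CT14. *Npas2*, a partner of BMAL1, had 4.29 ± 0.547 FPKM at CT2 and 3.94 ± 0.176 FPKM at CT22 (SD, n = 2), and at most 0.510 FPKM in the libraries of the other times. *Nfil3* (a D-box repressor), *Clock*, *Hlf*, *Cry2* and *Rora* had adjusted p-values between 0.132 and 0.8004 in limma's test. A gene that is highest near dawn or dusk has high values in both phases, and the plot of the clock genes shows several of this kind.

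**Figure D1:**
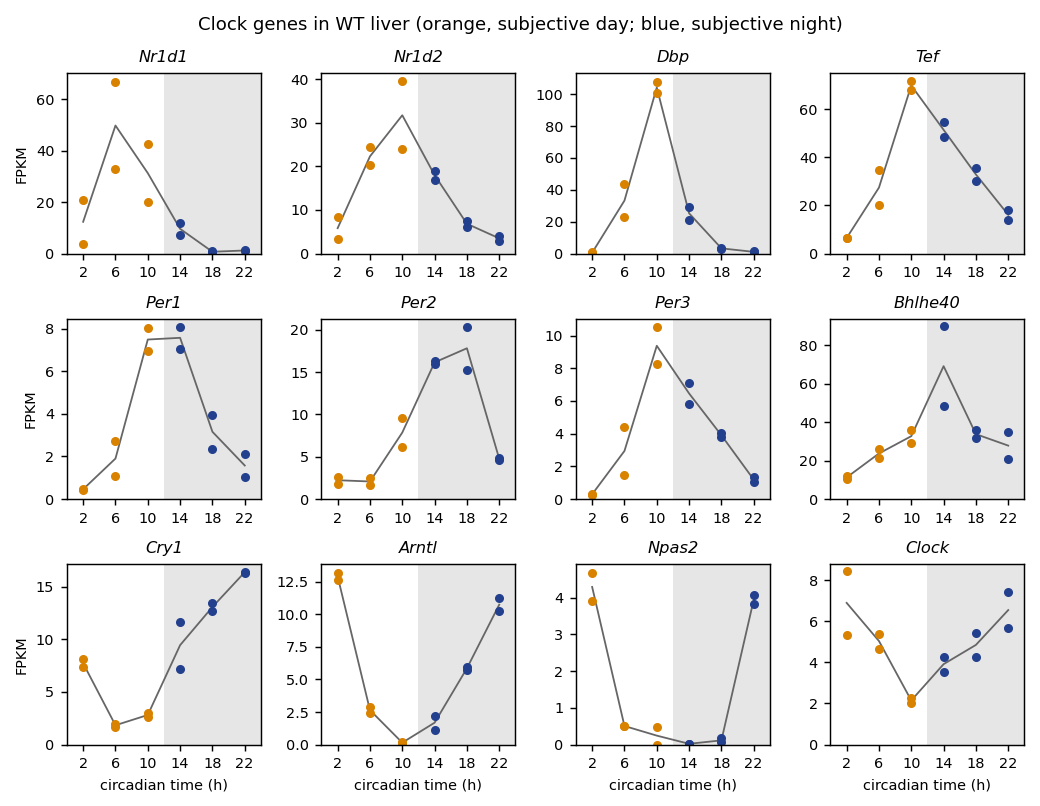
FPKM of 12 clock genes (vertical axis) against circadian time in hours (horizontal axis) in WT liver. Each point is 1 library, the line joins the means of 2 libraries, and the subjective night is shaded. *Nr1d1* and *Dbp* peak in the day, *Cry1* and *Per2* reach their highest values at night, and *Per1*, *Tef* and *Npas2* peak near a change of phase.

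Genes of the heat shock response, chaperones that refold proteins and rise with body temperature, formed the list with the most calls. Of 23 members tested, 10 were higher at night (43.5%, against 1.48% of all genes) and 0 in the day, by limma's test. In either direction, 15 of the 23 had an unadjusted p under 0.05, as did 2301 of the 11222 genes (20.5%). The median log2 difference of the list was -0.57, against 0.05 for all genes. *Hspa1b* (an inducible HSP70) ranged from 0.919 to 7.51 FPKM in the day (median 2.82) and from 1.96 to 44.3 FPKM at night (median 16.4). It had 39.1 ± 7.38 FPKM at CT14 (SD, n = 2) but only 2.52 ± 0.785 FPKM at CT22 (SD, n = 2), within the range of the day. The difference was 3.93-fold (log2 difference -1.97, SE 0.31, adjusted p = 0.0126 in limma's test). *Hspa1a*, its copy, had a lower level, 0.548 to 1.76 FPKM in the day and 0.358 to 10.9 FPKM at night, and a difference of 3.20-fold (adjusted p = 0.0195 in limma's test).
*Hsph1* (HSP105, a partner of HSP70) had 41.3 ± 2.74 FPKM at CT14 and 37.2 ± 15.4 FPKM at CT18 (SD, n = 2), and was 2.89-fold higher at night over all times (adjusted p = 0.0133 in limma's test). *Hspb1* (HSP27, a small heat shock protein) ranged from 12.3 to 34.4 FPKM in the day (median 14.2) and from 19.2 to 73.1 FPKM at night (median 45.2). Its 2 libraries at CT14 lay far apart, at 73.1 and 19.2 FPKM, and it remained high at CT22, with 45.2 ± 0.0609 FPKM (SD, n = 2). The other 6 called members had log2 differences from -1.13 to -0.55. Of the 13 that were not called, 10 also had a value below 0, with a range of -0.64 to 0.15. Under other settings the count was reduced to 1 without CT18, to 2 without CT6 and to 0 in a model of 2 groups that ignored the time points. With 1 library left out it was between 4 (CT2 replicate 1, CT10 replicate 1 or CT22 replicate 1) and 10.

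The cold-inducible RNA-binding protein *Cirbp*, which is known to respond to temperature in the opposite direction, was higher in the day. It ranged from 14.6 to 29.8 FPKM in the day (median 25.8) and from 6.01 to 14.1 FPKM at night (median 10.8), and no value of one phase reached those of the other. The log2 difference was 1.18 (SE 0.21, adjusted p = 0.0203 in limma's test). *Rbm3*, the other member of this list, had a log2 difference of 0.06 (adjusted p = 0.899 in limma's test).

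Glucocorticoid-responsive genes were another group of the night, with 4 of 15 members called there (26.7%, against 1.48% of all genes) and 0 in the day. In the model of 2 groups the count was 1. *Fkbp5* (a co-chaperone of the hormone's receptor) had 31.8 ± 0.764 FPKM at CT14 (SD, n = 2). At the other times its means lay between 3.60 ± 0.0873 FPKM at CT2 and 11.7 ± 0.365 FPKM at CT18 (SD, n = 2). The difference was 2.56-fold (log2 difference -1.36, SE 0.15, adjusted p = 0.00188 in limma's test), and the call was lost without CT14. *Tsc22d3* (GILZ, a mediator of the hormone's effects) ranged from 15.1 to 34.1 FPKM in the day (median 18.0) and from 44.6 to 68.8 FPKM at night (median 59.1), with no overlap of the phases. *Dusp1*, a phosphatase of MAP kinases, was 2.19-fold higher at night (adjusted p = 0.00242 in limma's test). *Tat*, which encodes the tyrosine aminotransferase, ranged from 263 to 544 FPKM in the day (median 362) and from 434 to 883 FPKM at night (median 693), and its call was lost in 15 of 28 other settings. The median of the list was -0.56, but the metallothioneins *Mt1* and *Mt2* and the kinase gene *Sgk1* were not called.

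Immediate-early genes, transcription factors and regulators induced within minutes of a stimulus, showed the opposite direction. Of 9 members tested, 3 were higher in the day (33.3%, against 2.35% of all genes) and 0 at night. *Egr1* had 4.93 and 43.7 FPKM at CT2, 41.5 and 11.3 FPKM at CT6, and 6.24 and 1.66 FPKM at CT10. At night 5 libraries held between 0.358 and 0.855 FPKM, and 1 at CT22 held 3.62 FPKM. The log2 difference was 3.60 (SE 0.65, adjusted p = 0.0201 in limma's test), with a large spread between the libraries of a time. *Junb*, a subunit of AP-1, ranged from 9.65 to 33.4 FPKM in the day and from 3.45 to 8.78 FPKM at night. *Zfp36*, which promotes the decay of cytokine mRNAs, was 1.80-fold higher in the day (adjusted p = 0.0241 in limma's test). The 2 day libraries with the highest *Egr1*, CT2 replicate 2 and CT6 replicate 1, also had the highest summed level of 12 macrophage markers, 201 and 191 FPKM, where the other 10 libraries had between 39.5 and 138 FPKM. *Lyz2*, the marker of this list with the highest mean over the 12 libraries, had 45.8 and 32.8 FPKM in these 2 libraries. Another marker exceeded it in CT6 replicate 1. All 12 macrophage markers were above 0 on the log2 scale in the day, and 0 were called. The same 2 libraries also had the highest summed level of 8 neutrophil markers, 7.97 and 4.29 FPKM, against 0.391 to 3.51 FPKM in the other 10. The part of these cells in the result was not tested. Without these 2 libraries, 1 immediate-early gene was called, and the calls over all genes were 111 in the day and 113 at night. The list had 0 calls without CT10 replicate 1, without CT14 replicate 1, without CT18 or with no filter on low values.

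Genes of fat and sugar metabolism were also called at night. *Thrsp* (Spot 14, a lipogenic protein induced by feeding, chromosome 7, 97412938 to 97417730, minus strand) ranged from 99.5 to 227 FPKM in the day (median 187) and from 230 to 1028 FPKM at night (median 760). No value overlapped, although the 2 libraries of CT22 (234 ± 5.95 FPKM, SD, n = 2) lay just above the day values. The log2 difference was -1.76 (SE 0.20, adjusted p = 0.00211 in limma's test). *Ppp1r3b*, a subunit that targets a phosphatase to glycogen, was 4.08-fold higher at night (adjusted p = 0.00163 in limma's test), and 1 library of CT2 with 100 FPKM lay within its night range of 85.8 to 160 FPKM.
Of 25 genes of glucose uptake, glycolysis and glycogen, 2 were called at night (8.0%), *Ppp1r3b* among them, and 0 in the day. Over all genes, 1.48% were called at night and 2.35% in the day. Among 23 genes of fatty acid and triglyceride synthesis, *Thrsp* and *Agpat2* (1.36-fold) were called at night and *Elovl5* (1.82-fold), an elongase of polyunsaturated fatty acids, in the day. *Elovl5* was highest at CT2, with 216 ± 9.13 FPKM, and lowest at CT14, with 46.9 ± 15.8 FPKM (SD, n = 2). Of 31 genes of fatty acid oxidation and PPARα targets, *Plin2* (1.46-fold) and *Bdh1* (1.52-fold, an enzyme of ketone bodies) were higher in the day and *Plin5* (1.72-fold) at night. *Plin2* and *Plin5* both encode coats of the lipid droplet, and the log2 difference of each had the opposite sign. The calls of *Plin2*, *Elovl5* and *Bdh1* were lost in 21, 18 and 15 of 28 other settings. In gluconeogenesis 0 of 15 genes were called by limma's test, with 1 at an unadjusted p under 0.05 and log2 differences from -0.70 to 0.15. In cholesterol synthesis and uptake 0 of 24 were called by limma's test, with 4 at an unadjusted p under 0.05.

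Genes of bile acid synthesis, the main route by which cholesterol is removed, were called in the day (3 of 21, or 14.3%, against 2.35% of all genes, and 0 at night). *Hsd3b7* ranged from 139 to 275 FPKM in the day (median 207) and from 68.5 to 210 FPKM at night (median 123). It had 251 ± 33.9 FPKM at CT2, 79.7 ± 15.7 FPKM at CT14 and 208 ± 3.11 FPKM at CT22 (SD, n = 2), and the difference was 1.58-fold (adjusted p = 0.0159 in limma's test). *Cyp8b1*, the sterol hydroxylase that sets the ratio of bile acids, had 63.0 ± 10.9 FPKM at CT14 and 184 ± 9.22 FPKM at CT6 (SD, n = 2). *Amacr*, a racemase for the side chain, ranged from 48.9 to 62.6 FPKM in the day and from 35.1 to 47.4 FPKM at night without overlap. *Cyp7a1*, the rate-limiting enzyme, had a log2 difference of -0.44 (adjusted p = 0.350 in limma's test). In the fits without CT2 replicate 1, without CT10 replicate 1, without CT14 or without CT18, 0 of the 21 genes were called.

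Of 31 enzymes of amino acid catabolism and the urea cycle, 2 were called in each phase (6.45%, against 2.35% of all genes in the day and 1.48% at night). *Cbs* (the first step of transsulfuration) ranged from 131 to 239 FPKM in the day and from 80.5 to 189 FPKM at night, 1.49-fold higher in the day (adjusted p = 0.0126 in limma's test). *Agxt* (glyoxylate detoxification, a call lost in 18 of 28 other settings) was 1.54-fold higher in the day, and *Asl* (an enzyme of the urea cycle) 1.68-fold higher at night. Among 29 genes of xenobiotic metabolism, *Ces1d* and *Fmo5* were called at night (6.9%, against 1.48% of all genes) and 0 in the day. *Ces1d*, a carboxylesterase with close paralogs that may share reads, ranged from 194 to 355 FPKM in the day and from 409 to 527 FPKM at night.

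Of 9 tested stress genes that respond to amino acids through ATF4, 2 were called in the day (22.2%, against 2.35% of all genes) and 1 at night (11.1%, against 1.48%). *Trib3*, a pseudokinase, ranged from 1.20 to 10.6 FPKM in the day (median 4.64) and from 0.653 to 1.90 FPKM at night (median 1.23), a difference of 3.78-fold (adjusted p = 0.0133 in limma's test), and only 1 library of CT2 fell into the night range. *Atf5* was 1.69-fold higher in the day, a call lost in 17 of 28 other settings. *Ddit4* (REDD1, an inhibitor of mTORC1 that glucocorticoid also induces) was 2.30-fold higher at night. *Ddit3* (CHOP) was 1.64-fold higher at night, the only called gene of 30 in protein folding of the endoplasmic reticulum (3.33%, against 1.48% of all genes). Of these 30 genes, 26 lay below 0 (median log2 difference -0.14) and 27 after rescaling, where 58.9% of all tested genes lay above 0. Only 2 of the 30 had an unadjusted p under 0.05 in limma's test. *Nampt*, which makes the precursor of NAD, was highest at CT14, with 1.70-fold more at night (adjusted p = 0.0133 in limma's test).
*Gabarapl1*, a protein of the autophagosome, was the 1 called gene of 25 in autophagy and the lysosome (4.0%, against 2.35% of all genes in the day). It ranged from 151 to 241 FPKM in the day (median 178) and from 41.5 to 140 FPKM at night (median 89.5), and the phases did not overlap.

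Further lists held 0 to 2 called genes each. Of all tested genes, 58.9% had a log2 difference above 0, 20.5% had an unadjusted p under 0.05 in limma's test, and 2.35% were called in the day and 1.48% at night. Of 37 proteasome subunits, 36 lay above 0, with a median log2 difference of 0.19, and 35 of 37 still did after rescaling. Called were *Psmb9* (an immunoproteasome subunit, 1.72-fold) and *Psma5* (1.40-fold), both in the day (5.41% of the list). The unadjusted p was under 0.05 for 17 of the 37, and 7 were called in the day in 1 fit of all 24 libraries, as were 441 of all tested genes. Of 26 splicing factors and CLK kinases, 2 were called (7.69%), both in the day, *Srsf5* (1.40-fold) among them. Of 79 cytosolic ribosomal proteins 0 were called by limma's test, with 3 at an unadjusted p under 0.05, and 72 lay above 0 as deposited but 58 after rescaling. Among 81 nuclear genes of the respiratory chain, 0 were called by limma's test and 4 had an unadjusted p under 0.05. In ribosome biogenesis *Nop16* was the 1 called gene of 32 (3.12%, 1.39-fold higher at night), and in acute-phase proteins *Apcs* was the 1 called of 22 (4.55%, 2.01-fold higher in the day). Its highest value, 171 FPKM, came from CT6 replicate 1, and the call was lost in 22 of 28 other settings, among them the one without that library. *Nop16* lost its call in 20 of these settings and *Srsf5* in 19. By limma's test 0 of 15 genes of the insulin, growth hormone and IGF axis were called, 0 of 10 of the cell cycle and 0 of 18 apolipoproteins, with 3, 4 and 2 at an unadjusted p under 0.05. The plot of list members shows all these lists.

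**Figure D2:**
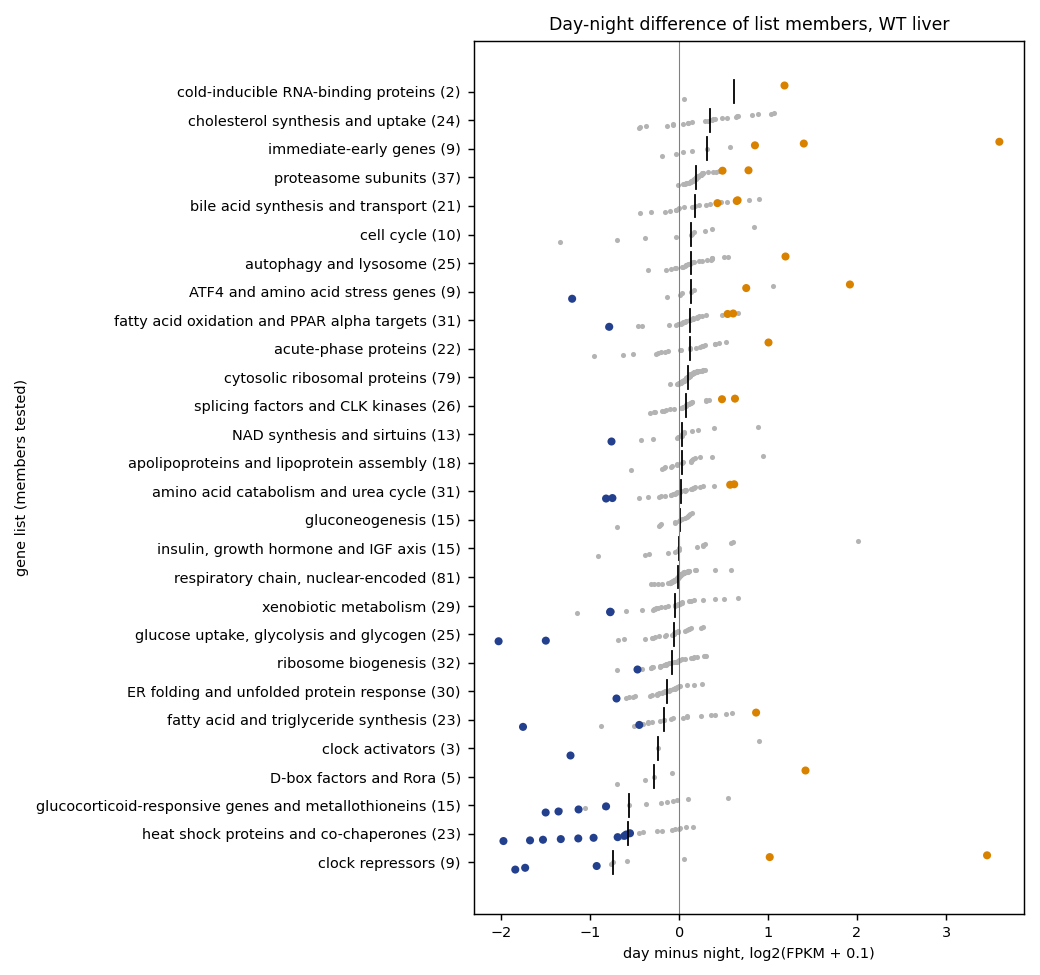
Day minus night difference of each tested member of 28 gene lists on the scale of log2(FPKM + 0.1), 12 WT libraries. Each point is a gene, orange where called higher in the day, blue where called higher at night and grey where not called, and the bar is the median of the list. The heat shock list has 10 blue points and the glucocorticoid list 4, while 36 of 37 proteasome subunits lie to the right of 0.

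**Figure D3:**
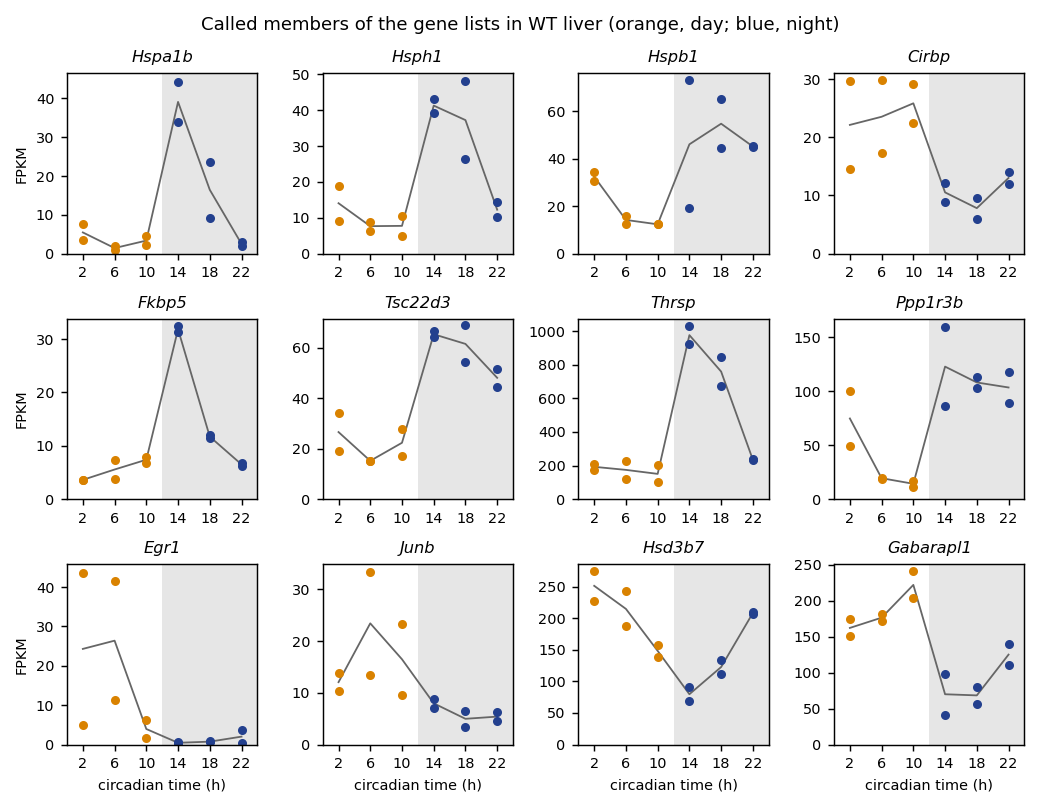
FPKM (vertical axis) of 12 called genes of the lists against circadian time in hours (horizontal axis) in WT liver. Each point is 1 library, the line joins the means of 2 libraries, and the night is shaded. *Hspa1b*, *Fkbp5* and *Thrsp* are highest at CT14, *Egr1* differs widely between the libraries of CT2 and of CT6, and *Hsd3b7* is lowest at CT14.

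The genes with the largest differences, among those called, with a mean of at least 5 FPKM and with phases that did not overlap, were named by a rule: 12 of 55 eligible genes of the day and 12 of 23 of the night. Among called genes the phases did not overlap for 85 of the day and 41 of the night. In the day these were *Junb*, *Gabarapl1* and *Cirbp*, described above, and then *Slc4a4* (a sodium bicarbonate cotransporter, 1.90-fold), *St6gal1* (a sialyltransferase, 1.82-fold), *Inca1* (1.82-fold), *Mov10* (an RNA helicase, 1.79-fold), *Arsa* (a lysosomal sulfatase, 1.76-fold), *Tifa* (an adaptor of NF-κB signalling, 1.76-fold), *Psmb9*, *Camk1* (a calcium-dependent kinase, 1.60-fold) and *Tap2* (a peptide transporter of antigen presentation, 1.60-fold). *Inca1* had the smallest adjusted p of these (0.00647 in limma's test), with 11.4 to 18.0 FPKM in the day and 5.602 to 11.3 FPKM at night. *St6gal1* had the largest (0.0453), its lowest value was 3.39 FPKM at CT18, and its call was lost in 21 of 28 other settings, that of *Camk1* in 16.
At night they were *Thrsp* and *Tsc22d3*, described above, *Col27a1* (a fibrillar collagen, 2.64-fold), *Zfp970* (1.98-fold), *Samd1* (1.78-fold), *Fgf1* (a growth factor with metabolic effects, 1.76-fold), *Plin5*, *Ces1d*, *Abhd6* (a monoacylglycerol lipase, 1.69-fold), *Trp53inp2* (a regulator of autophagy, 1.64-fold) and *Gda* (guanine deaminase, 1.60-fold). *Col27a1* reached 32.2 ± 9.89 FPKM at CT18 (SD, n = 2), against 4.49 to 9.14 FPKM in the day. *Fgf1* had 21.9 to 29.7 FPKM in the day and 37.7 to 48.3 FPKM at night, and its adjusted p, 0.00180 in limma's test, was the smallest of these 11 genes.

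**Figure D4:**
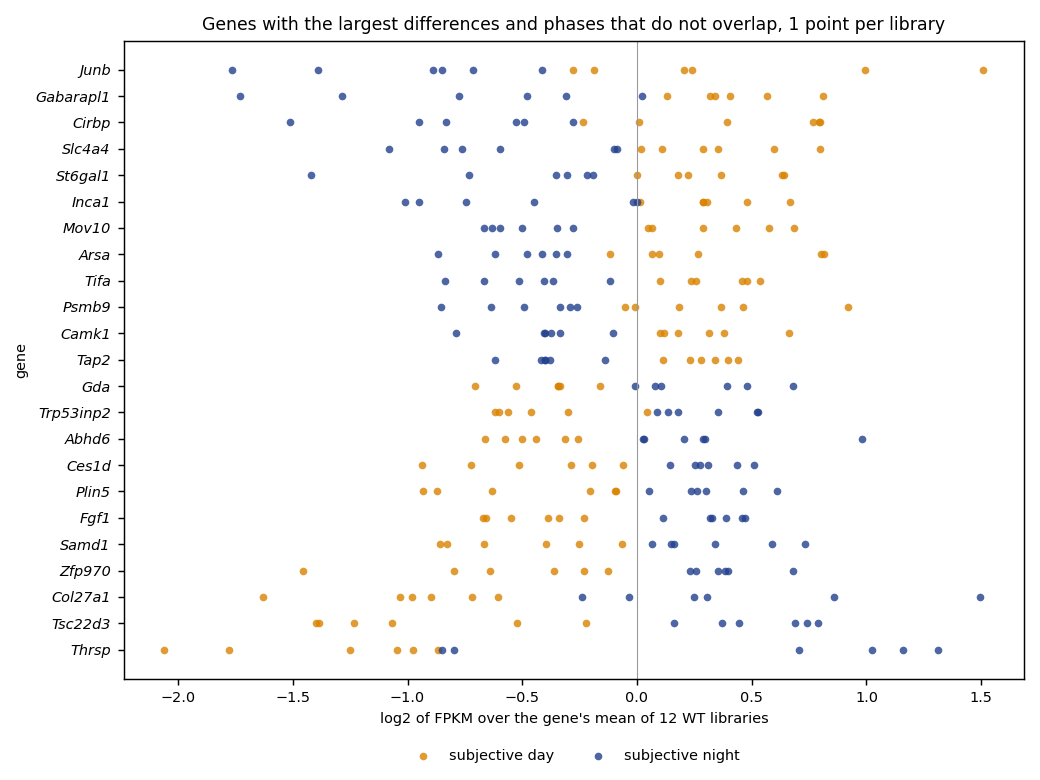
Level of 23 genes in each of the 12 WT libraries, as log2 of the FPKM over the mean of that gene (horizontal axis), with genes on the vertical axis. Each point is 1 library, orange for the day and blue for the night, and no gene shown has overlapping phases, as the rule required.

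The markers of cell types described the samples as hepatocyte-rich liver in both phases. *Alb*, the most abundant hepatocyte marker, had 28245 ± 5401 FPKM in the day and 29226 ± 3822 FPKM at night (SD, n = 6), and of 10 hepatocyte markers only *Tat* was called. Summed macrophage markers were 130 ± 57.4 FPKM in the day and 86.6 ± 32.2 FPKM at night (SD, n = 6), with 0 of 12 called. All 10 markers of the sinusoidal endothelium lay above 0 and 0 were called. Summed red blood cell markers, led by *Hbb-bs*, were 1063 ± 329 FPKM in the day and 852 ± 392 FPKM at night (SD, n = 6). No neutrophil marker reached a mean of 1 FPKM, so none was tested, but their summed level was 3.36 ± 2.62 FPKM in the day and 0.744 ± 0.292 FPKM at night (SD, n = 6), led by *S100a9* (1.60 ± 1.01 and 0.261 ± 0.243 FPKM). Of the markers of the exocrine pancreas, 7 of 10 were listed at 0 in every WT library, and *Cela1*, the most abundant, had 26.6 ± 7.77 FPKM in the day and 19.7 ± 5.42 FPKM at night (SD, n = 6). *Cela1* was not called, nor were the most abundant markers of 5 other lists. In the day and at night (mean ± SD, n = 6), *Clec4g* (sinusoidal endothelium) had 16.7 ± 4.60 and 13.8 ± 2.11 FPKM, *Dcn* (stellate cells) 37.6 ± 14.3 and 38.4 ± 10.4 FPKM, and *Tm4sf4* (cholangiocytes) 46.7 ± 10.2 and 34.7 ± 4.19 FPKM. *Ighm* (lymphocytes) had 3.82 ± 3.37 FPKM in the day and 2.32 ± 0.956 FPKM at night, and *Plin4* (adipocytes) 1.23 ± 0.642 and 1.66 ± 0.699 FPKM. For bulk tissue, fewer cells of a type and less RNA per cell cannot be told apart.

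The same contrast in the ΔRRE livers gave 95 genes higher in the day (0.847% of the genes tested) and 100 at night (0.891%), by limma's test. With 1 ΔRRE library left out, the counts were 11 to 159 in the day and 18 to 132 at night. In the model of 2 groups they were 0 and 0. Of the 430 genes called in WT, 417 (97.0%) had the same sign in ΔRRE, where 70.9% of all tested genes did so. Called in both genotypes with the same sign were 89 genes, 20.7% of the WT calls and 45.6% of the ΔRRE calls. The median log2 difference in ΔRRE was 0.40 for the WT day genes and -0.68 for the WT night genes. *Nr1d1* (3.26, adjusted p = 0.00506 in limma's test), *Cry1* (-1.70, 0.00449) and *Per2* (-2.03, 0.0142) were called in ΔRRE in the same direction. So were *Thrsp* (-2.62, 0.0201) and 7 of the 10 heat shock genes. The difference between the genotypes was tested as an interaction, and 1 gene of 11222 passed (0.00891%), with 404 at an unadjusted p under 0.05. That gene was *Gm21981*, a model that overlaps *Tomm6* and *Prickle4* on the same strand. *Arntl*, the gene whose RREs were deleted, had the next smallest adjusted p, 0.169 in limma's test (unadjusted p = 3.00e-05). Its log2 difference was -1.23 (SE 0.18) in WT and 0.01 (SE 0.13) in ΔRRE. *Arntl* passed the interaction test without CT2, without CT14 and without WT CT14 replicate 2, and without CT14 it was the 1 gene that passed, in place of *Gm21981*.

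**Figure D5:**
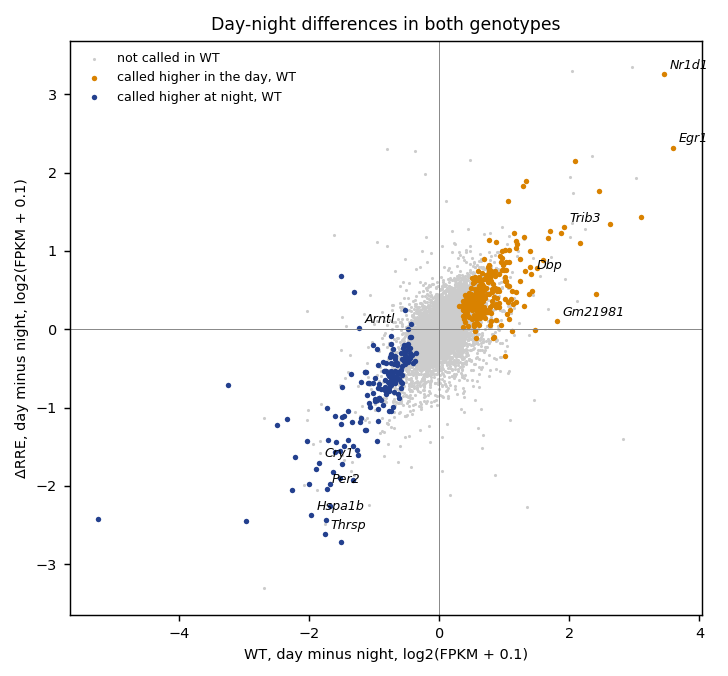
Day minus night difference of 11222 genes in WT (horizontal axis) and ΔRRE liver (vertical axis), both on the scale of log2(FPKM + 0.1). Each point is a gene, orange or blue where called in WT and grey elsewhere. Of the 430 coloured points, 417 have the same sign in both genotypes, and *Arntl* lies near 0 on the ΔRRE axis.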

How the data were processed

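Liver RNA was sequenced as directional poly(A) libraries. The authors deposited FPKM per gene, 1 file per library. Trimmomatic 0.39, HISAT2 2.1.0, StringTie 1.3.5 and mm10 are named in the submitters' processing notes, with no roles given. Whether strand was used in counting is not given in the sources used here, and overlapping genes are uncertain. FPKM hold no read counts, so depth is unknown and neither count tests nor counting intervals were computed. The FPKM summed to between 554170 and 624746 per WT library. From them, log2(FPKM + 0.1) was computed for genes with a WT mean of at least 1 FPKM. Fold changes are on this scale and understate the change of low genes. limma 3.58.1 (R 4.3.3, variance prior with trend) fitted the 6 time points as a factor. Day was the mean of 3 times and night that of the others, with Benjamini-Hochberg adjustment over 11222 genes. The interaction test used all 24 libraries. Libraries of a time had a Pearson's r of 0.961 to 0.973 across genes, and no pair shared more than 0.0411% of its values. The steps were tested on simulated data.

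The members and lists were chosen with earlier results of these data known. Genes were named by rule: all clock list members, the 12 largest differences of each side described in the text, up to 4 called genes of each other list, and the top gene of each cell type list. *Rbm3*, *Cyp7a1*, *S100a9*, *Gm21981* and *Tomm6*, *Mt1*, *Mt2*, *Sgk1* and the genes of the other observations were chosen after their values were seen. 3 genes that the rule selects are not reported here. Promoter windows matched 73.2% of tested genes by symbol, too few to compare shares between called genes, which are void. Positions are from GENCODE M21. Alternatives were another constant, filter, scale, model, threshold or set of libraries. Python 3.11.15, pandas 2.3.3, NumPy 2.4.6 and matplotlib 3.10.9 were also used.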

Additional observations from a re-analysis of the deposited data

Results flagged for a closer look

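In 13 of 212 groups of 6 values examined (the day and the night values in WT of the genes named here and of each marker sum), the highest or lowest library stood apart from the others by Dixon's 95% limit, where chance flags about 1 group in 20. Each phase spans 3 time points, so a library can also stand apart for its time. Some of the genes examined were chosen after their values were seen, among them *Apoa5*, *Hmgcs1*, *Idi1*, *Mt1* and *Mt2*. All 5 of these are flagged below, so the count cannot be compared with the rate of chance. At night the highest values were 16.2 FPKM of *Hlf* (next 9.69) in CT14 replicate 2 and 47.9 FPKM of *Abhd6* (next 29.9) in CT14 replicate 1. These libraries also held 399.8 FPKM of *Mt1* (next 124.5) and 200.7 FPKM of *Mt2* (next 21.9) in replicate 2, and 363.7 FPKM of *Apoa5* (next 251) in replicate 1. CT22 replicate 2 held the highest night values of *Egr1*, 3.62 FPKM (next 0.855), and of *Zfp970*, 56.8 FPKM (next 46.6). In the day, CT6 replicate 1 held the highest values of *Apcs*, 171 FPKM (next 80.2), of *Zfp36*, 52.1 FPKM (next 29.6), of *Hmgcs1*, 349 FPKM (next 119), and of *Idi1*, 196 FPKM (next 64.2). *Hspa1a* was highest in CT2 replicate 2, with 1.76 FPKM (next 0.988), and *Nop16* lowest in CT10 replicate 1, with 8.81 FPKM (next 12.7).

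The day-night difference of *Gm21981* was 1.71 higher in WT than in ΔRRE on the log2 scale (interaction, adjusted p = 0.00315 in limma's test). It was 0.12 and 0.13 FPKM in the 2 WT libraries of CT14 and between 8.10 and 12.3 FPKM in the other 10. *Tomm6*, which overlaps it on the same strand (chromosome 17, 47686646 to 47688386), had 54.9 and 45.1 FPKM in the same 2 libraries and between 10.4 and 21.4 FPKM in the other 10. The part of the shared reads in this result was not tested.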

How the results depend on the processing

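The 63 named genes that were called kept their sign in each other setting that held them, except *Arntl* (0.32) and *Dbp* (-0.12) without CT10. These settings numbered 28, or 27 for *Hspa1a* and *Trib3*, whose means lie below the filter of 5 FPKM. 7 of the 63 genes stayed past the threshold throughout, among them *Cry1*, *Thrsp*, *Tsc22d3*, *Fgf1*, *Inca1* and *Ppp1r3b*. The counts of calls depended far more on the setting. In WT, genes higher in the day and at night numbered 81 and 86 with no filter, 80 and 44 in a model of 2 groups, 21 and 31 at an adjusted p under 0.01, and 166 and 66 as groups without overlap. A mean of at least 5 FPKM gave 110 genes at night, rescaling gave 168 in the day, 1 fit of all 24 libraries gave 441 in the day, and a log2 difference of at least 0.58 gave 175 in the day. Without CT6 they numbered 38 and 71, without CT14 115 and 90, without CT18 22 and 34, and without CT10 159 in the day. Without CT2 replicate 2 and CT6 replicate 1 together, a setting chosen after seeing the data, 111 genes were higher in the day. Leaving out 1 library gave 54 (without CT10 replicate 1) to 248 in the day and 60 (without CT22 replicate 1) to 166 at night. In ΔRRE, the counts for day and night were 46 and 60 with no filter, 0 and 0 in 2 groups, 37 and 59 with no trend, 189 and 191 in 1 fit, 0 and 10 without CT6, 39 and 51 without CT10, 28 and 61 without CT14, 0 and 0 without CT18, and 267 and 291 without CT22. Without CT2, 196 were higher at night. Leaving out 1 ΔRRE library gave 11 to 159 in the day and 18 to 132 at night. The interaction count of 1 became 0 with 1 FPKM added, in 2 groups or without CT10, 2 with 0.01 FPKM added, without CT2 or without CT6, and 8 with no filter, and leaving out 1 library gave 1 to 2. The share with the same sign in ΔRRE was 88.0% with no filter, 94.5% without CT6 and 94.6% without CT18, and 93.7% to 97.7% with 1 library left out. Replicate numbers were shared by time points. In WT, deviations of same-numbered libraries correlated over 0.1 in 7 of 15 pairs (lowest -0.098, median 0.099, highest 0.236). These values cannot decide whether libraries of the same number share a batch. The replicate block gave 274 and 175 genes in WT, against 264 and 166 without it. In ΔRRE it gave 145 and 177, against 95 and 100. The precision is limited by 2 libraries per time point and an unknown depth.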

Other observations

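Of 24 genes of cholesterol synthesis and uptake, 18 had a higher mean in the day in WT (median log2 difference 0.35) and 0 in ΔRRE (median -0.47), and 0 passed the interaction test, with 5 at an unadjusted p under 0.05. *Hmgcs1*, the first committed enzyme, had 349 FPKM in WT CT6 replicate 1 and 16.7 FPKM in CT10 replicate 2, and its WT difference of 1.03 had an adjusted p of 0.253 in limma's test. *Idi1* had 196 FPKM in the same CT6 library and 10.9 to 64.2 FPKM in the other 11. Without CT2 replicate 2 and CT6 replicate 1, 13 of the 24 genes lay above 0, with a median of 0.09, and 1 was called at night. The summed level of the list ranged from 664 to 3183 FPKM in the WT day and from 844 to 1608 FPKM in the WT night.

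Of the macrophage markers, 12 of 12 lay above 0 in WT and 0 of 12 in ΔRRE. Their summed level in ΔRRE was 94.6 ± 17.0 FPKM in the day and 112 ± 30.4 FPKM at night (SD, n = 6), and 0 of 12 passed the interaction test.

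*Psmb9* and *Tap2* lie close together on chromosome 17, with *Tap1* between them (34187553 to 34197225, plus strand). *Tap1*, another peptide transporter of antigen presentation, had 4.88 to 6.202 FPKM in the day and 2.58 to 3.98 FPKM at night without overlap (log2 difference 0.63, adjusted p = 0.0240 in limma's test). *Psmb8*, the neighbour of *Tap1*, had a log2 difference of 0.26 (adjusted p = 0.247 in limma's test). *Psmb9* and *Tap1* overlap on opposite strands by 212 bases, so that reads there may be shared.

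*Igfbp1*, which insulin represses, had the largest difference among genes of the lists that were not called. It had 2.56 to 31.2 FPKM in the WT day and 0.99 to 13.9 FPKM at night (log2 difference 2.01, SE 0.64, adjusted p = 0.111 in limma's test). *G6pc* (glucose-6-phosphatase) and *Apoa5* (a regulator of plasma triglyceride) had log2 differences of -0.70 and -0.54 (adjusted p of 0.0713 and 0.0555 in limma's test).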
